A study of Homo sapiens with 8 samples.

Results

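Autophagy core machinery genes are the genes whose products build the autophagosome, and 40 of them were taken by name from the known initiation, nucleation, conjugation and cargo receptor steps, out of 20033 protein-coding genes. Their promoters were searched for HA ChIP-Seq peaks of PHF20 and of PHF20L1 from U2OS, a human osteosarcoma cell line. Every library came from cells overexpressing a protein with a 3xHA tag, the short peptide that the antibody recognizes. For PHF20, 2 ChIP libraries and 1 input library without antibody carried the tag at the N terminus. For PHF20L1, 1 ChIP and 1 input library had the N-terminal tag, and 2 ChIP and 1 input library had the tag at the C terminus. Because the proteins were overexpressed, the peaks describe tagged protein added to these cells. The deposited lists give the start and end of each final peak, as the authors kept those of 1 library of a protein that were also called in its other libraries, without a height, a depth or a value per library. No spread between libraries can therefore be given and no test between groups was possible. A gene is called bound here if any base of a peak fell in a promoter window, which began 1000 bp before and ended 500 bp after the transcription start site (TSS) of any of its transcripts in GENCODE release 44. A gene without a peak was not called at the authors' thresholds, and protein below them cannot be seen in these lists.

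PHF20 and PHF20L1 are Tudor domain proteins that read methylated lysine and belong to the NSL complex, which carries the histone acetyltransferase KAT8 and acts at promoters. Autophagy delivers cytoplasm to the lysosome in a double-membrane vesicle. The ULK1 kinase complex starts the process and the class III PI3-kinase complex marks the growing membrane with PI3P. Conjugation enzymes then attach ATG8 proteins (the LC3 and GABARAP families) to the membrane, where they bind receptors that carry cargo. Many autophagy and lysosome genes carry E-boxes that are read by TFEB and related factors.

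PHF20 had a promoter peak at 24 of the 40 autophagy genes (60.0%, Wilson 95% interval 44.6% to 73.7%), against 20.7% of all protein-coding genes. PHF20L1 had one at 7 (17.5%, 8.75% to 31.9%), against 3.82%. All 7 of these genes also had a PHF20 peak, as did 747 of the 766 coding genes with a PHF20L1 peak. Both proteins were thus found at 7 genes, against 3.73% of coding genes, and PHF20 only at 17 genes, against 17.0%. Among genes bound by PHF20, PHF20L1 was found at 7 of 24 autophagy genes (29.2%) and at 747 of 4148 coding genes. The intervals cover counting error only, and these shares are descriptions without a test, because genes are not replicates. The list was chosen by name with earlier results of these data known, so it is not a random sample of genes. With only the TSS of the MANE Select transcript, the representative transcript agreed between annotations, PHF20 was again found at 24 of the genes, against 19.3% of coding genes. The coding genes were counted without regard to their expression in U2OS. The paper reports that regions bound by either protein were enriched for highly expressed genes, and the part of expression in these shares was not tested.

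**Figure D1:**
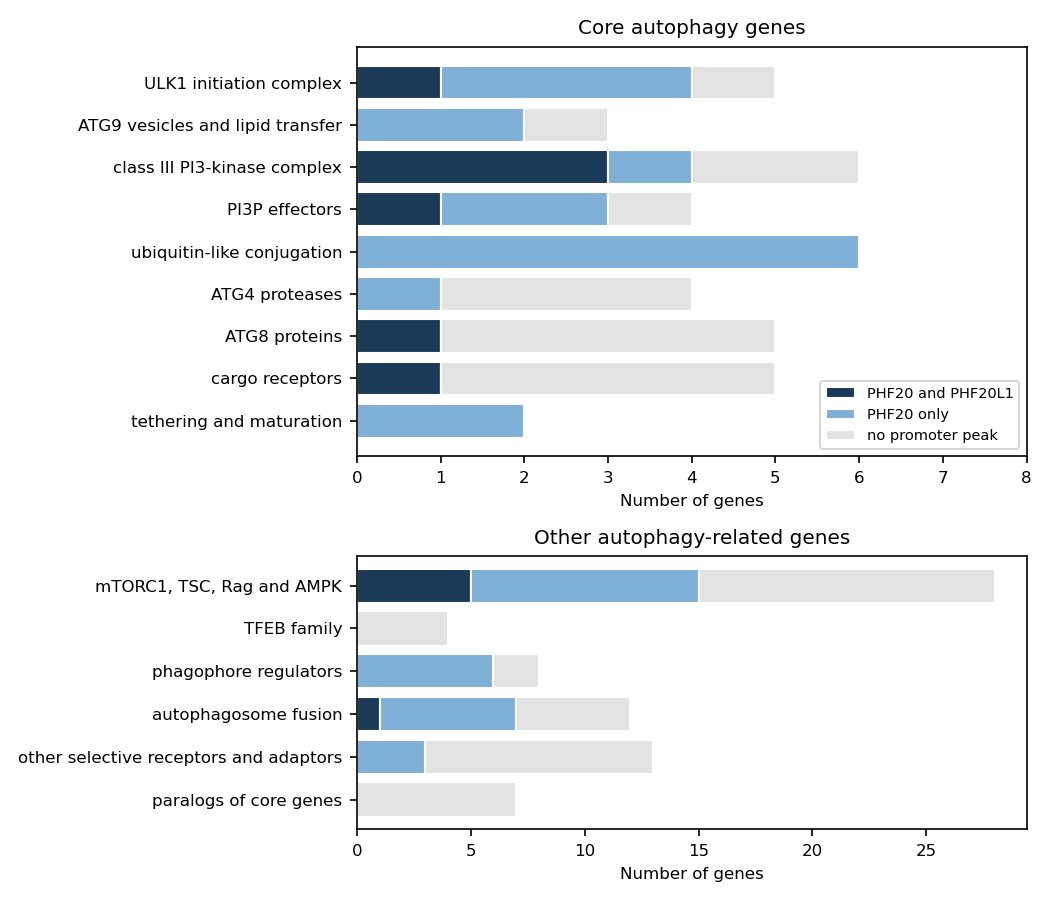
Number of genes (horizontal axis) in each role that had promoter peaks of both proteins, of PHF20 only or of neither, for the 40 core autophagy genes (upper panel) and 72 other autophagy-related genes (lower panel). All 6 conjugation genes had a PHF20 peak, while 1 of 5 ATG8 genes and 1 of 5 cargo receptor genes did.

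The bound genes were unevenly spread over the roles. PHF20 peaks were found at all 6 genes of the ubiquitin-like conjugation systems, at 4 of 5 genes of the ULK1 initiation complex, at 4 of 6 of the class III PI3-kinase complex, at 3 of 4 PI3P effectors, at 2 of 3 genes for ATG9 vesicles and lipid transfer, and at both genes for tethering and maturation. In contrast, 1 of 4 ATG4 proteases, 1 of 5 ATG8 proteins and 1 of 5 cargo receptors had one. Put together after these counts were seen, the last 3 roles held 3 bound genes of 14 (21.4%) and the other 6 roles held 21 of 26 (80.8%). The first share is close to the 20.7% of all coding genes, and the second is above it. This contrast was chosen from the data and was not tested. The plot of genes by role shows that PHF20L1 was found in 5 of the 9 roles, with 3 of its 7 genes in the class III PI3-kinase complex.

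**Figure D2:**
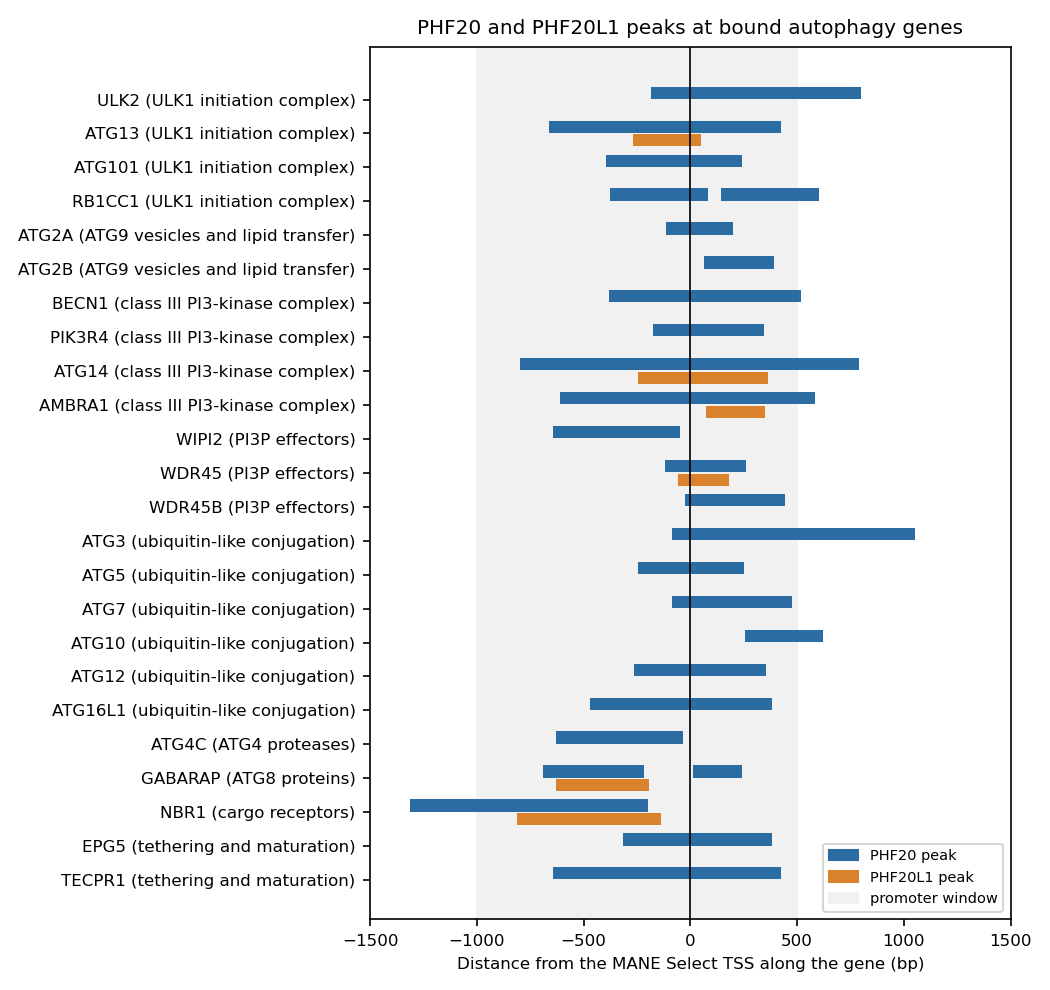
Extent of PHF20 peaks (blue) and PHF20L1 peaks (orange) at the 24 bound autophagy genes, as the distance in bp from the MANE Select TSS along the direction of the gene. The grey band is the promoter window of that TSS, and the pair of BECN1 peaks near an upstream TSS lies outside the plotted range.

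In the ULK1 complex, ATG13, the adaptor that joins the kinase to its scaffold, was bound by both proteins. Its PHF20 peak covered 1088 bp on chromosome 11, from 46616890 to 46617977, and the PHF20L1 peak of 320 bp from 46617285 to 46617604 lay wholly inside it. ULK2, a kinase closely related to ULK1, had a PHF20 peak of 980 bp from 182 bp upstream to 797 bp downstream of its TSS. ATG101, the partner that stabilizes ATG13, had a PHF20 peak of 639 bp. RB1CC1, the large scaffold also known as FIP200, had 2 PHF20 peaks of 458 and 460 bp on either side of a short gap, and the first of these covered the TSS. ULK1 itself had no peak of either protein, and the nearest PHF20 peak was 183112 bp from its TSS. Thus, the ULK1 kinase gene was not called while its paralog and the 3 other genes of the complex were.

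The ATG13 promoter is printed because the gene lies head to head with HARBI1, with 326 bp between their MANE Select TSSs, and a single PHF20 peak covers this interval. The PHF20L1 peak covers the ATG13 TSS but not that of HARBI1. The sequence is chr11:46617253-46617526 of hg38 on the strand of ATG13, 5′ to 3′. It is the stretch from 300 to 27 bp upstream of the ATG13 TSS, which is free of annotated exons, and capitals mark a GC box (GGGCGG or its complement) and a CCAAT box in reverse orientation.
ATG13: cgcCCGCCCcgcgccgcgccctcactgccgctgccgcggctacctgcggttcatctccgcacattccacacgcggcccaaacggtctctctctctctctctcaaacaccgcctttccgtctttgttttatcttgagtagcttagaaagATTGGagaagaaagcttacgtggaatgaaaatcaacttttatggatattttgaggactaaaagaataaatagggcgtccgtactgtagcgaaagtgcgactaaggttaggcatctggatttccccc

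The PI3-kinase complex held the widest PHF20 peaks of the 40 genes, those of ATG14 and AMBRA1. ATG14, the subunit that directs the complex to the forming autophagosome, had a PHF20 peak of 1590 bp on chromosome 14 from 55411039 to 55412628, at percentile 99.3 of the 3562 PHF20 peaks at coding promoters. The PHF20L1 peak within it was 611 bp wide, from 55411465 to 55412075, at percentile 94.2 of 615. AMBRA1, a regulator that binds BECN1, had a PHF20 peak of 1196 bp and inside it a PHF20L1 peak of 280 bp. PIK3R4, the regulatory subunit VPS15, had a PHF20 peak of 520 bp only. PIK3C3, the catalytic subunit VPS34, and UVRAG, which replaces ATG14 in another form of the complex, had none.

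At BECN1, the gene of the subunit known as Beclin, the assignment of PHF20L1 depended on the transcript. BECN1 had 2 PHF20 peaks on chromosome 17. The first, 903 bp from 42823763 to 42824665, covered the MANE Select TSS. The second, 1127 bp from 42832691 to 42833817, had its centre at -8972 bp from that TSS. It covered another annotated BECN1 start (42833332) and the MANE Select TSS (42833397) of PSME3, a proteasome activator gene on the other strand. The only PHF20L1 peak of BECN1 (421 bp, 42833045 to 42833465) lay inside this second peak. With the MANE Select TSS alone, BECN1 was therefore counted for PHF20 only, and PHF20L1 was found at 6 autophagy genes.

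The promoter of ATG14 is given because it carries the widest peak among these genes and an E-box close to the TSS. The sequence is chr14:55411831-55412030 of hg38 on the minus strand, which is the strand of the gene. It covers the 200 bp upstream of the TSS, and capitals mark the letters CACGTGAC.
ATG14: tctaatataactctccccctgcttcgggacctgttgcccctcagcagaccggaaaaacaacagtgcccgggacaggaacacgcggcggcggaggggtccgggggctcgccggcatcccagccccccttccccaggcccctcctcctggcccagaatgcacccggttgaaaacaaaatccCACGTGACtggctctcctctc

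Of the PI3P effectors, which are the propeller proteins that bind the marked membrane, 3 had PHF20 peaks and 1 of these a PHF20L1 peak. WDR45 (WIPI4) had narrow peaks of both proteins, with 382 bp for PHF20 and 241 bp for PHF20L1 on chromosome X, and both covered its MANE Select TSS. The peaks also reached an annotated coding gene on the same strand that shares this start. WDR45B (WIPI3) had a PHF20 peak of 468 bp over its TSS. At WIPI2, which recruits ATG16L1, the PHF20 peak of 595 bp ended 49 bp upstream of the TSS. WIPI1 had no peak. Both lipid transfer genes had narrow PHF20 peaks, of 315 bp at ATG2A and 330 bp at ATG2B, while ATG9A, which encodes the scramblase of ATG9 vesicles, had none.

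The conjugation genes had a PHF20 peak and no called PHF20L1 peak at all 6 promoters. The PHF20L1 list is the shorter one, with 723 peaks against 4147 for PHF20, and PHF20L1 below its thresholds cannot be seen. Most coding genes bound by PHF20 also had no PHF20L1 peak, since one was found at 747 of 4148. The lack of PHF20L1 peaks at these 6 genes therefore does not set the role apart, and it was not tested. ATG7, the E1-like enzyme of both systems, had a PHF20 peak of 560 bp on chromosome 3 from 11272313 to 11272872. ATG3, the E2-like enzyme for ATG8 proteins, had the widest peak of the role, 1139 bp from 112560912 to 112562050. ATG10, the E2-like enzyme for ATG12, had a peak of 366 bp that began 257 bp downstream of the TSS. The components of the ATG12–ATG5–ATG16L1 complex had peaks of 618 bp (ATG12), 499 bp (ATG5) and 855 bp (ATG16L1), and each of these covered the MANE Select TSS. The widths of the 6 peaks ranged from 366 bp (ATG10) to 1139 bp (ATG3, percentile 89.6 of PHF20 peaks at coding promoters).

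Upstream of the ATG5 TSS, 4 of the searched sequences stood within 169 bp, and the stretch is printed for that reason. It is chr6:106325792-106325960 of hg38 on the minus strand, from 200 to 32 bp upstream, and is free of annotated exons. Capitals mark, in order, GCGCATGC (the NRF1 sequence), GGGCGG (GC box), CACGTG (E-box) and TGACGTCA (CRE, bound by CREB and ATF factors).
ATG5: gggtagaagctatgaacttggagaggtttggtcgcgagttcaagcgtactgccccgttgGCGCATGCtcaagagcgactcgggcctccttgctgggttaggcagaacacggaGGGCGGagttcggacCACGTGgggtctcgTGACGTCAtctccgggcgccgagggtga

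The ATG4, ATG8 and receptor genes were bound at a share (21.4%) near that of all coding genes (20.7%). Of the proteases that cut ATG8 proteins, ATG4C had a PHF20 peak of 597 bp, which ended 34 bp upstream of the TSS, and ATG4A, ATG4B and ATG4D had none. Of the ATG8 genes, MAP1LC3A, MAP1LC3B, GABARAPL1 and GABARAPL2 had none. GABARAP was the exception and was bound by both proteins, with PHF20 peaks of 230 and 475 bp on chromosome 17 and a PHF20L1 peak of 434 bp. The PHF20 peaks lay on either side of its MANE Select TSS, the narrower one covering alternative starts, and the PHF20L1 peak extended 22 bp beyond the PHF20 peak. The receptors SQSTM1 (p62), OPTN, TAX1BP1 and CALCOCO2 (NDP52) had none, whereas NBR1 was bound by both. At NBR1 the PHF20 peak of 1116 bp ended 200 bp upstream and the PHF20L1 peak of 673 bp, at percentile 96.5 of PHF20L1 widths, ended 138 bp upstream of the MANE Select TSS. They covered alternative NBR1 starts there and also reached a coding gene on the other strand, and the PHF20 peak centre was 24.5 bp from the nearest of them. EPG5, a tether between autophagosome and lysosome, had a PHF20 peak of 700 bp, and TECPR1, a lysosomal protein of the same step, had one of 1065 bp.

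**Figure D3:**
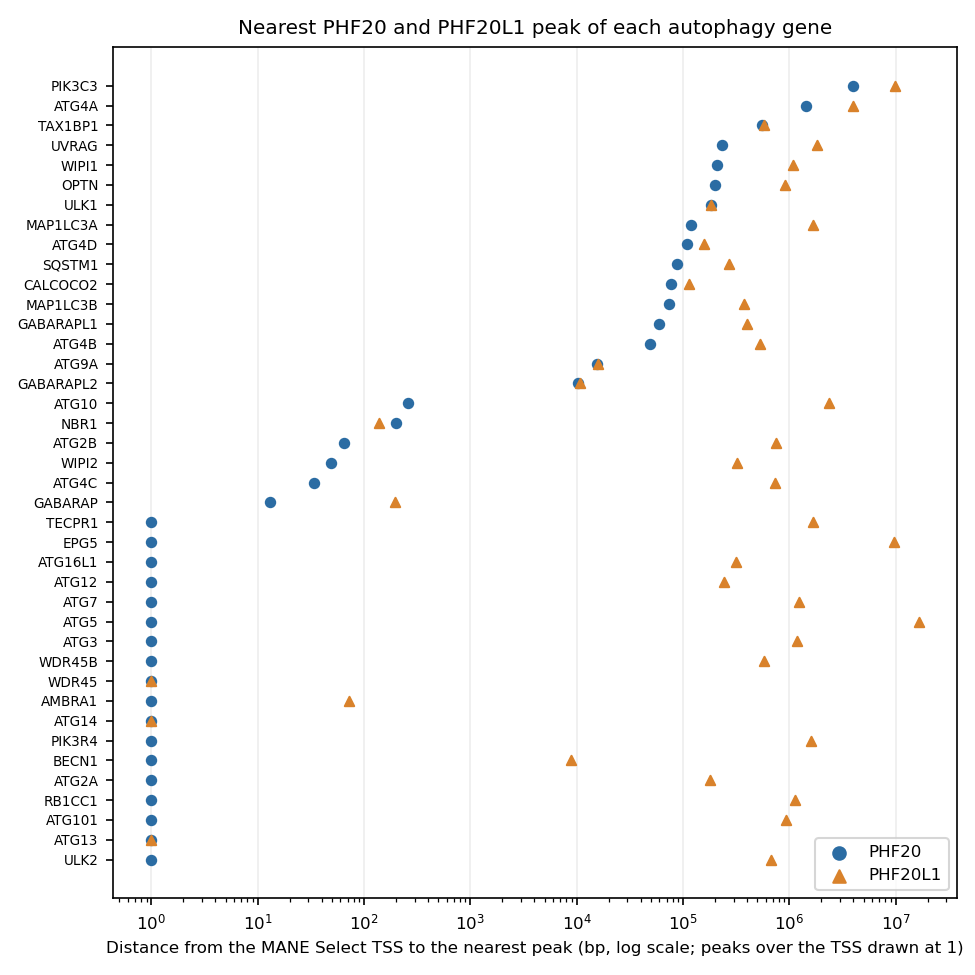
Distance in bp (log scale) from the MANE Select TSS of each of the 40 autophagy genes to the nearest PHF20 peak (circles) and PHF20L1 peak (triangles), with peaks over the TSS drawn at 1. The 24 bound genes lie at up to 257 bp from a PHF20 peak and the 16 others at 10238 bp or more.

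The call itself sets bound genes near a PHF20 peak and unbound genes away from one, so the distances are given as a description. All bound genes had a PHF20 peak within 257 bp of the MANE Select TSS, with ATG10 the farthest. The 16 unbound genes had no PHF20 peak nearer than 10238 bp, with a median of 113798 bp. The smallest of these distances was at GABARAPL2, where the nearest peak was at the promoter of TMEM231, a cilium gene. For ATG9A, at 15489 bp, it was at the promoter of STK16. The largest was at PIK3C3, where the nearest PHF20 peak on the chromosome was the one at EPG5, 4011712 bp away. None of the 40 genes had a peak of either protein elsewhere in the gene, outside the promoter windows. As the plot of nearest peaks shows, no gene fell between these ranges for PHF20, and the smallest overlap that gave a call was 241 bp, the whole PHF20L1 peak of WDR45.

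Of the 26 PHF20 peaks in MANE Select windows of autophagy genes, 18 covered the TSS (69.2%), compared with 66.4% of the 3854 such pairs of peak and coding gene. The median peak centre was at 39.25 bp from the TSS, against -0.5 bp for coding genes (negative values are upstream), and 57.7% of centres lay downstream against 49.9%. The centres ranged from -757.5 bp (NBR1) to 481 bp (ATG3). Peaks over the TSS were thus about as frequent at autophagy genes as at coding genes, in a comparison without a test.

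**Figure D4:**
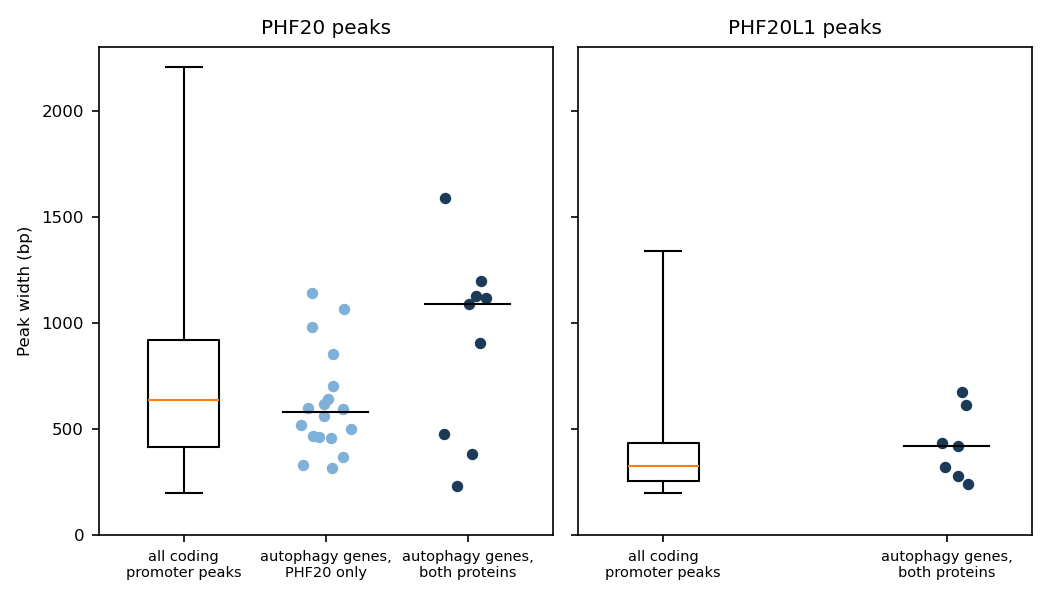
Width in bp of PHF20 peaks (left) and PHF20L1 peaks (right) at autophagy genes, each point being 1 peak and each line the median of its points. The boxes give the median and quartiles of all peaks at coding promoters, with whiskers to the narrowest and widest, and ATG14 is the highest PHF20 point at 1590 bp.

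The 27 PHF20 peaks of autophagy genes were 230 to 1590 bp wide (median 597 bp), against a median of 635 bp for the 3562 peaks at coding promoters. PHF20L1 peaks had a median of 421 bp over 7 peaks (241 to 673 bp), against 323 bp over 615. In the genes bound by both proteins the widest PHF20 peak of each gene had a median of 1116 bp, and in those bound by PHF20 only it was 595 bp. Over all coding genes these medians were 989 bp and 614 bp, so that in both sets the PHF20 peaks were wider by the median where PHF20L1 was also found. The sets overlapped. WDR45 and GABARAP were bound by both proteins with PHF20 peaks of at most 382 and 475 bp, while ATG3 (1139 bp), TECPR1 (1065 bp) and ULK2 (980 bp) were bound by PHF20 only. Of the 7 PHF20L1 peaks, 5 lay wholly inside a PHF20 peak and took up from 23.4% (AMBRA1) to 63.1% (WDR45) of it. Those of GABARAP and NBR1 extended past it by 22 and 62 bp.

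Several of these promoters serve more than 1 gene, and a peak there cannot be assigned to either. Of the 27 PHF20 peaks, 9 also reached the promoter window of a coding gene on the other strand (33.3%), compared with 673 of the 3562 PHF20 peaks at coding promoters that reached coding genes on both strands (18.9%). They belonged to 8 genes, ATG12, ATG13, ATG2A, ATG2B, ATG3, BECN1, NBR1 and TECPR1. By MANE Select TSSs, the closest pair was ATG3 and SLC35A5, with 83 bp between them, followed by ATG2B and GSKIP with 185 bp, ATG13 and HARBI1 with 326 bp, and ATG12 and AP3S1 with 370 bp. At TECPR1 the peak centre was nearer to an alternative start of BRI3 (38 bp) than to any start of TECPR1 (109 bp). In the other 8 peaks the centre was nearer to the autophagy gene when all annotated starts of both genes were used. For the second BECN1 peak the nearest start was an alternative one, and its centre was at -8972 bp from the BECN1 MANE Select TSS. The other 16 bound genes had no such neighbour at their PHF20 peaks. A head-to-head coding partner within 1000 bp was present at 7 autophagy genes, and 4 of these were bound. The unbound ones were ATG9A (with ANKZF1), ATG4A (with PSMD10) and ATG4B (with THAP4). Among genes without such a partner PHF20 was found at 20 of 33 autophagy genes (60.6%) and at 18.2% of 17283 coding genes, and with one at 46.5% of 1778 coding genes.

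**Figure D5:**
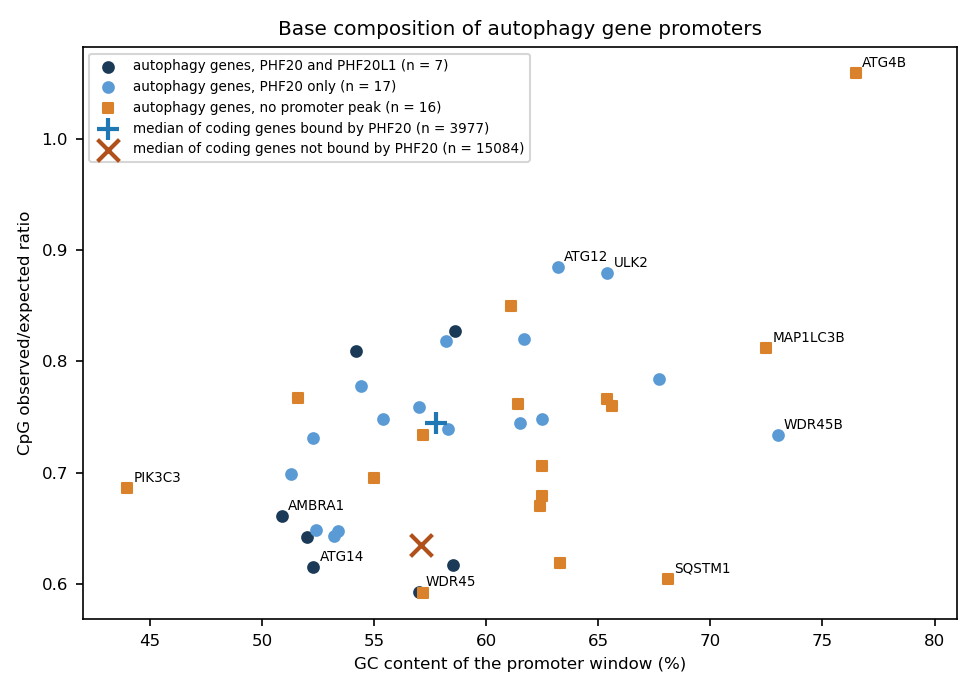
CpG observed/expected ratio against GC content (%) of the promoter window of the MANE Select TSS, with 1 point for each of the 40 autophagy genes by the peaks found there. Crosses give the medians of coding genes with and without a PHF20 peak, and bound and unbound autophagy genes overlap in both measures.

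CpG dinucleotides were frequent at both bound and unbound autophagy promoters. In the promoter window, the CpG observed/expected ratio had a median of 0.742 (range 0.593 to 0.885) in the 24 bound genes and 0.720 (0.592 to 1.059) in the 16 unbound genes, and the range of the bound genes lay inside that of the unbound genes. Over coding genes the medians were 0.745 with a PHF20 peak and 0.635 without. The GC content was 57% in bound and 62.45% in unbound autophagy genes by the median, and the extremes, PIK3C3 at 44% and ATG4B at 76.5%, were both unbound. A ratio of at least 0.6, a cutoff chosen after the values were seen, was found at 38 of the 40 genes. PHF20 was found at 23 of these 38 (60.5%), at 29.6% of the 11771 coding genes at or above the cutoff and at 6.76% of the 7290 below it.

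Letters read by known promoter factors were then searched on both strands of the whole peaks, for 9 short sequences. The E-box CACGTG was in the PHF20 peaks of 5 genes, ATG14, ATG3, ATG5, BECN1 and GABARAP. The ETS sequence ACTTCCGG, or its complement CCGGAAGT, was in those of 6 others, ATG4C, ATG7, RB1CC1, TECPR1, WDR45 and WDR45B. No gene had both, and 13 bound genes had neither. By peak, the E-box was in 6 of 27 (22.2%) against 16.9% of PHF20 peaks at coding promoters, and the ETS sequence was in 6 of 27 (22.2%) against 17.6%. Within 250 bp of the centre, where all windows have the same length, the shares were 14.8% against 14.6% for the E-box and 18.5% against 16.8% for the ETS sequence. Of 15065 coding TSSs bound by neither protein, 10.0% had the E-box within 250 bp and 3.79% the ETS sequence. The CCAAT box was in 16 of the 27 peaks (59.3%) against 41.0%, and within 250 bp of the centre in 44.4% against 33.5%. Within 250 bp of the TSSs bound by neither protein its share was 44.2%, near that of the autophagy peaks. The YY1 sequence ATGGCGGC was in 7.41% of the 27 peaks against 12.7%, and within 250 bp of the centre in 3.70% against 11.5%. Of the 7 PHF20L1 peaks, 3 held the E-box (42.9%) against 14.0% of PHF20L1 peaks at coding promoters. The CCAAT box was in 4 of them (57.1%) against 23.3%. Within 250 bp of the centre the PHF20L1 shares were 42.9% against 16.4% for the E-box and 57.1% against 35.8% for the CCAAT box. The BECN1 peak at the PSME3 start was among those with the E-box. These shares rest on few peaks and were not tested. The other sequences searched overlap these in part, since CACGTGAC and TCACGTGA both contain the E-box. A match is a description of the letters, and no match says only that they are not in the window.

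Some of the sites with 8 matched letters for the E-box and ETS sequences in PHF20 peaks are printed so that the promoters can be compared base by base. Each is 30 bases of hg38 on the strand of the gene, with the matched letters in capitals. The ATG14 (chr14:55411833-55411862) and GABARAP (chr17:7243051-7243080) sites lay inside PHF20L1 peaks as well, with centres at -17 and -616 bp from the TSS. ATG3 had 2 sites of CACGTGAC, at chr3:112561964-112561993 and chr3:112561941-112561970, centred at -16 and 6 bp from the TSS. The second overlaps a TCACGTGA.
ATG14: aaacaaaatccCACGTGACtggctctcctc
GABARAP: cgcgcacccgcCACGTGACgctccgccctc
ATG3, upstream: ccctttctcacGTCACGTGccgggagagtc
ATG3, downstream: gagagtctagtGTCACGTGaggccccggtg

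The ETS sites of 5 genes are printed next, and stood near the TSS. Their centres were at -113 bp in TECPR1 (chr7:98252331-98252360), -64 bp in ATG4C (chr1:62784053-62784082) and 20 bp in ATG7 (chr3:11272403-11272432). Those of WDR45 (chrX:49079889-49079918) and WDR45B (chr17:82648426-82648455) were at -16 and 3 bp. Of these 5, the WDR45 site alone lay inside a PHF20L1 peak.
TECPR1: ctggcgcgaccCCGGAAGTgggcgggcgcg
ATG4C: gctttcgtatcCCGGAAGTggctgatctgt
ATG7: agctgtggttgCCGGAAGTtgagcggcggt
WDR45: ggctccctcccCCGGAAGTagggcctgatg
WDR45B: gtacgtccggcACTTCCGGccgcggcggcc

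The ETS letters also occurred at unbound autophagy genes. Within 250 bp of the TSS the ETS sequence was found in 6 of 24 bound and 2 of 16 unbound genes, and the E-box in 3 bound and 0 unbound genes. The unbound genes with the ETS sequence were GABARAPL2 (chr16:75566346-75566375) and PIK3C3 (chr18:41955185-41955214), and their sites are given for comparison with those above. MAP1LC3A, also unbound, had 3 copies of the CRE letters TGACGTCA within 250 bp of its TSS. Unbound GABARAPL1 and bound ATG5 had 1 copy each. The YY1 sequence was found there at unbound ATG4B, GABARAPL2 and MAP1LC3B and at bound ATG13. Of coding TSSs bound by neither protein, 2.55% had the CRE letters and 5.74% the YY1 sequence within 250 bp. None of this was tested.
GABARAPL2: ggctccgacagCCGGAAGTcccgcctgccg
PIK3C3: cgggggcggaaCCGGAAGTtccgtgttgtg

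For SQSTM1, the receptor gene of p62, which had no peak, the exon-free stretch from -198 to -28 bp of the MANE Select TSS is printed as an example of an unbound promoter. It is chr5:179820707-179820877 of hg38 on the plus strand. Of the 9 searched sequences it held only the GC box, at 4 places, in capitals.
SQSTM1: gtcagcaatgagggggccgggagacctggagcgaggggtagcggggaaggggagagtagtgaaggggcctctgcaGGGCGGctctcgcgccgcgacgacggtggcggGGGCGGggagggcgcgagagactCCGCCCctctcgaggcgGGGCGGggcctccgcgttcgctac

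Genes that act around the core machinery were counted in the same way, as 72 genes in 6 roles. PHF20 was found at 31 (43.1%, Wilson 95% interval 32.3% to 54.6%) against 20.7% of coding genes, and PHF20L1 at 6 (8.33%, 3.88% to 17.0%), against 3.82%. By role, PHF20 was found at 15 of 28 genes of nutrient sensing through mTORC1, TSC, Rag proteins and AMPK, at 6 of 8 phagophore regulators, at 7 of 12 genes of autophagosome fusion and at 3 of 13 other selective receptors and adaptors. None of the 4 TFEB family genes (TFEB, TFE3, MITF, TFEC) and none of 7 paralogs of core genes (ATG9B, ATG16L2, MAP1LC3B2, MAP1LC3C, ULK3, BECN2 and TECPR2) had a peak of either protein. The TFEB family and the paralogs are small groups that were named after their values were seen, and their counts were not tested. The share among the other selective receptors and adaptors (23.1%) was near that of all coding genes. PHF20L1 was found at RPTOR, TSC1, LAMTOR3, LAMTOR5, FLCN and VPS33A, and 5 of these genes belong to nutrient sensing. VPS33A, a subunit of the HOPS tether, had the widest PHF20 peak of the 72 genes, 1558 bp, with a PHF20L1 peak of 616 bp. It was followed by TSC1 (1242 bp), RPTOR (1240 bp), MTOR (1155 bp) and VPS11 (1147 bp). With only the MANE Select TSS, PHF20 was found at 30 of the 72 genes, without RUBCN, a phagophore regulator, against 19.3% of coding genes. Some of these promoters are also shared with a coding gene on the other strand. The PHF20 peak centre was nearer to that gene at RUBCN, VMP1 and VPS16, and nearer to the autophagy-related gene at TSC1, TSC2 and RRAGA.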

How the data were processed

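HA ChIP-Seq was performed by the authors on U2OS cells in 8 libraries. Reads were mapped with Bowtie 1.1.2 to hg38, only unique positions and single copies were retained, and MACS2 2.2.7.1 was run against the input. Peaks on blacklisted regions were removed, and final peaks were those of the library with the best signal that overlapped peaks of the other libraries of that protein. A PHF20 replicate with few peaks was left out by the authors, and 2 PHF20 ChIP libraries are analysed here. Tool versions are those of the submitters' processing notes. The deposited values are start and end positions on hg38 (4147 PHF20 and 723 PHF20L1 peaks), and 0 peaks passed a chromosome end of the reference. Depth is unknown from these files.

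Genes were taken from GENCODE release 44, without mitochondrial genes. All coding genes were processed alike, and members are the 40 named genes. The members, roles, further genes, sequences searched and alternatives were chosen with earlier results of these data known. Genes named are all members, neighbours sharing their peaks, and among further genes those with PHF20L1 or the 5 widest PHF20 peaks. The TFEB family, the paralogs, RUBCN, VMP1, VPS16, TSC2, RRAGA, TMEM231, STK16, ANKZF1, PSMD10 and THAP4 were named after their values were seen. One neighbour of NBR1 is not named, and not all sequence sites found are printed. Tested alternatives were overlap rules, windows, TSS sets and peak widths. Window and sequence counting were tested on simulated data. Python 3.11.15, numpy 2.4.6, scipy 1.17.1, pysam 0.24.0 and matplotlib 3.10.9 were used.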

Additional observations from a re-analysis of the deposited data

How the results depend on the processing

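The number of autophagy genes bound by PHF20 was 24 when the peak centre had to lie in the window, with an overlap of at least 100 bp, with windows of 500 bp upstream to 250 bp downstream or 5000 bp upstream to 500 bp downstream, with protein-coding transcripts, and with peaks of at least 300 bp. The share of coding genes under these settings was 18.6% to 21.7%. With the outermost TSS of each gene the number of autophagy genes bound by PHF20 was 21, without ATG16L1, RB1CC1 and WDR45, against 17.8% of coding genes. The number bound by PHF20L1 was between 5 and 7 under all 9 alternatives, against 2.11% to 4.02% of coding genes. It lost BECN1 with the MANE Select TSS, WDR45 with the outermost TSS, and AMBRA1 and WDR45 with peaks of at least 300 bp or of at least the median width. Leaving out all peaks narrower than their list's median width moved the counts most, to 12 genes for PHF20 (12.1% of coding genes), 8 for PHF20 only (10.1%) and 4 for both (1.94%). The fall follows from its construction, since fewer peaks are counted. Within 250 bp of the peak centre, 0 PHF20 peaks of autophagy genes held the TFEB-type E-box TCACGTGA (2 in whole peaks) and 1 held the YY1 sequence ATGGCGGC (2 in whole peaks). No paired analysis was possible because each deposited list is 1 set of peaks drawn from several libraries, and for the same reason no library could be left out. The lists give no depth or height, so a weak site below the authors' thresholds was not detectable.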
